A study of Mus musculus with 4 samples.

Results

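The snoRNA host genes of this report were Gas5, Snhg1, Snhg3, Snhg5, Snhg6, Snhg8, Snhg11 and Snhg12, chosen by name as table entries whose Ensembl gene carries one of these symbols in GENCODE M21. They made up 8 of the 14949 genes and 201 of the 46637 gene-named isoforms in the table. Nanopore cDNA-PCR sequencing was run on primary neural stem cells, which the study derived from the embryonic neocortex of gene-floxed mice, to ask whether Tut1 acts on mRNA splicing. Each of the 4 groups had 1 library. Tut1f/f cells received empty lipid nanoparticles (LNP) and served as the control. Tut1f/f, Trp53f/f (written p53f/f in the sample labels) and Tut1f/f;Trp53f/f cells received LNP carrying Cre mRNA, and treatment lasted 3 days by the design text. All 4 cultures were floxed, and only the Cre-treated ones received mRNA, so Cre mRNA and the deletion cannot be told apart in a comparison with Tut1f/f. The study's methods give the same mid-gestation day for the embryos of all these floxed lines, and their sex was not given. The cells came as bulk cultures, in which fewer cells of a type and less RNA per cell cannot be told apart.

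The Tut1f/f library held 5125888 reads and the Tut1f/f;Cre library 4253498. The library with the Trp53f/f;Cre label held 4830314 and that with the double-floxed label 3936827. Reads assigned to genes numbered 4244467, 2968653, 3432639 and 2863392 in this order, which the text keeps for values given in a row of 4. Tut1 itself had 37, 11, 14 and 27 reads in the same order, and its level in CPM (counts per 1000000 gene reads) was 9.30, 3.63, 4.02 and 9.15. Tut1 was therefore low in a library whose label carries no Tut1 deletion, and near the control level in one whose label does. The study deletes 1 internal exon from the Tut1 mRNA, and reads of the whole gene can come from transcripts that lack it, so these counts do not check the deletion. Both libraries are called here by their labels (the Trp53f/f;Cre-labelled library, the Tut1f/f;Trp53f/f;Cre-labelled library), and directions drawn from them rest on the labels. Trp53 had 175, 67, 10 and 19 reads, or 44.0, 22.1, 2.87 and 6.44 CPM. The 8 neural stem cell markers summed to 11787, 12032, 11300 and 13081 CPM with none at 0, most of it Fabp7 (9912, 9919, 9381 and 11382 CPM). Within that list Hes1 had 149, 499.5, 455 and 452 CPM and was called higher in every Cre-treated library by the 2-fold rule given below, Nes and Sox9 were called higher in Tut1f/f;Cre and in the Trp53f/f;Cre-labelled library and Pax6 in Tut1f/f;Cre alone, and Vim (1265, 758, 619 and 622 CPM) was called lower in the 2 libraries with a Trp53 deletion in their labels. Oligodendrocyte-lineage markers summed to 352, 582, 675 and 473 CPM, lowest in the control as the hosts were, with Sox10 called higher in Tut1f/f;Cre and Olig2 in the Trp53f/f;Cre-labelled library. Neuronal markers summed to 87.8, 80.6, 71.2 and 88.1 CPM and astrocytic ones to 338, 337, 297 and 340 CPM, with Gfap at 0. Aldh1l1 had 187, 16, 11 and 71 reads and was called lower in Tut1f/f;Cre and in the Trp53f/f;Cre-labelled library, and S100b was called higher in the Tut1f/f;Trp53f/f;Cre-labelled library on 21 against 10 reads. All 4 microglial and all 3 endothelial markers were at 0. The control also stood apart in reads of the ribosomal RNA gene (18.7% of gene reads, against 5.46% to 9.75% in the Cre-treated libraries), in reads with no gene name (17.2%, against 27.3% to 30.2%) and in the read-weighted median annotated transcript length (1743 bases, against 1172 to 1318). The part of these differences in the results below was not tested.

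Small nucleolar RNAs (snoRNAs) guide chemical modification and cleavage of ribosomal RNA, and most mammalian ones are cut out of the introns of longer host transcripts after splicing. Box C/D snoRNAs guide ribose methylation, and box H/ACA snoRNAs guide pseudouridylation. In the genes described here the product of interest lies in the introns, the spliced exons encode no known conserved protein, and the spliced RNA of several hosts begins with a pyrimidine tract and is degraded when it is translated. U6 snRNA, the substrate of TUT1, pairs with the start of introns during splicing.

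By GENCODE M21 (GRCm38), Gas5 (ENSMUSG00000053332), a gene known to accumulate in growth-arrested cells, lay at chr1:161034422-161038539 on the plus strand and held 9 snoRNA genes. Snhg1 (ENSMUSG00000108414), the host of Snord22, lay at chr19:8723475-8726443 on the plus strand and held 8. Snhg12 (ENSMUSG00000086290) lay at chr4:132308623-132311024 on the plus strand and held 4. Snhg3 (ENSMUSG00000085241), the host of the Snora73 snoRNAs that act in processing of small-subunit ribosomal RNA, lay at chr4:132348014-132353686 on the minus strand and held 2. Snhg5 (ENSMUSG00000097195), the host of the Snord50 pair, lay at chr9:88521050-88522929 on the minus strand and held 2. Snhg6 (ENSMUSG00000098234) lay at chr1:9941959-9944118 on the minus strand and held only Snord87. Snhg8 (ENSMUSG00000104960) lay at chr3:123507552-123508404 on the minus strand and held only Snora24. Snhg11 (ENSMUSG00000044349), annotated as protein-coding and known as a transcript of neurons, lay at chr2:158375638-158386145 on the plus strand and held 2.

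The products of these hosts are shown by 1 snoRNA each for the hosts whose introns the results below turn on, as GENCODE M21 transcripts on GRCm38. Capitals mark the box C letters TGATGA and the box D letters CTGA, or the ACA that lies 3 bases from the end of a box H/ACA snoRNA.
Snora16a, Snhg12, chr4:132309464-132309600, plus strand: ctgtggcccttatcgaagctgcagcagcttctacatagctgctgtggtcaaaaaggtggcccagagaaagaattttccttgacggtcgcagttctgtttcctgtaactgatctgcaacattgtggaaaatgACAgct
Snora24, Snhg8, chr3:123507937-123508066, minus strand: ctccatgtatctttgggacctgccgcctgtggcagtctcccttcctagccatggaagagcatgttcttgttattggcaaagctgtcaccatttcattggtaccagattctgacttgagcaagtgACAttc
Snord50a, Snhg5, chr9:88521529-88521600, minus strand: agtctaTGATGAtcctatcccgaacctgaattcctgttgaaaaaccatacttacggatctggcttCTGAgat
Snord47, Gas5, chr1:161038082-161038158, plus strand: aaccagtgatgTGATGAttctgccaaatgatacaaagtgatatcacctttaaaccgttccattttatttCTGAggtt
Of the 29 snoRNA genes in the 8 hosts, 16 had TGATGA starting in the first 15 bases with CTGA starting in the last 14, 5 had the ACA, and 8 had neither. Of the 1529 snoRNA and scaRNA genes of GENCODE M21, 19.9% held the first pair and 18.8% the ACA. The letters were searched on the transcribed strand alone, and a match is a description of the letters.

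Together the hosts gave 10633, 11113, 14439 and 11315 reads, from the control to the Tut1f/f;Trp53f/f;Cre-labelled library. After scaling by TMM (edgeR's correction of library totals) this was 2674 CPM (95% interval 2623 to 2725), 3669 CPM (3601 to 3738), 4144 CPM (4076 to 4212) and 3835 CPM (3765 to 3906). The control was thus the lowest of the 4, and the sum was 1.37, 1.55 and 1.43 times the control. Gas5 gave more of these reads than any other host in each library. All intervals and p-values from reads in this report cover counting error only and treat reads as independent. PCR reads carried no molecular identifiers, so copies of 1 molecule could make the intervals too narrow and the p-values too small. With 1 library a group no difference has a replicate check.

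Gas5 had 5217, 5659, 8248 and 5921 reads, or 1312, 1868, 2367 and 2007 CPM, in the library order given above. The control was lowest and the Trp53f/f;Cre-labelled library highest. Against Tut1f/f the ratios were 1.42 (95% exact interval 1.37 to 1.48), 1.80 (1.74 to 1.87) and 1.53 (1.47 to 1.59).

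Snhg3 had 520, 862, 726 and 833 reads, or 131, 285, 208 and 282 CPM. Its ratios to the control were 2.18 (1.95 to 2.43), 1.59 (1.42 to 1.79) and 2.16 (1.93 to 2.41). The 2 libraries with a Tut1 deletion in their label were the highest, although Tut1 reads were low in only the first of them. Snhg3 lies within the span of the protein-coding gene Rcc1 on the same strand, so reads could be split between them, and Rcc1 had 235, 35, 69 and 48 reads.

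Snhg8 had 1987, 2285, 2294 and 2105 reads, or 499.6, 754, 658 and 713 CPM, with the control again lowest. Its ratios were 1.51 (1.42 to 1.60), 1.32 (1.24 to 1.40) and 1.43 (1.34 to 1.52).

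Snhg6 had 1602, 1251, 1758 and 1203 reads, or 403, 413, 505 and 408 CPM. Only the Trp53f/f;Cre-labelled library stood above the control, at 1.25 times (1.17 to 1.34). The intervals of the other ratios included 1, at 1.03 (0.952 to 1.10) and 1.01 (0.938 to 1.09).

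Snhg1 had 607, 490, 658 and 584 reads, or 153, 162, 189 and 198 CPM. The ratio of Tut1f/f;Cre was 1.06 (0.939 to 1.20), while those of the other Cre-treated libraries were 1.24 (1.11 to 1.38) and 1.30 (1.16 to 1.46). Snhg12 had 315, 255, 376 and 292 reads, or 79.2, 84.2, 108 and 99.0 CPM, and ratios of 1.06 (0.898 to 1.26), 1.36 (1.17 to 1.59) and 1.25 (1.06 to 1.47).

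Snhg5 had 374, 305, 366 and 369 reads, or 94.0, 101, 105 and 125 CPM. Its ratios were 1.07 (0.918 to 1.25), 1.12 (0.964 to 1.29) and 1.33 (1.15 to 1.54), so only the last interval lay above 1. Snhg11 had 11, 6, 13 and 8 reads, or 2.77, 1.98, 3.73 and 2.71 CPM, and did not pass edgeR's default filter on low counts. The other 7 hosts were among the 9882 genes that passed.

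**Figure D1:**
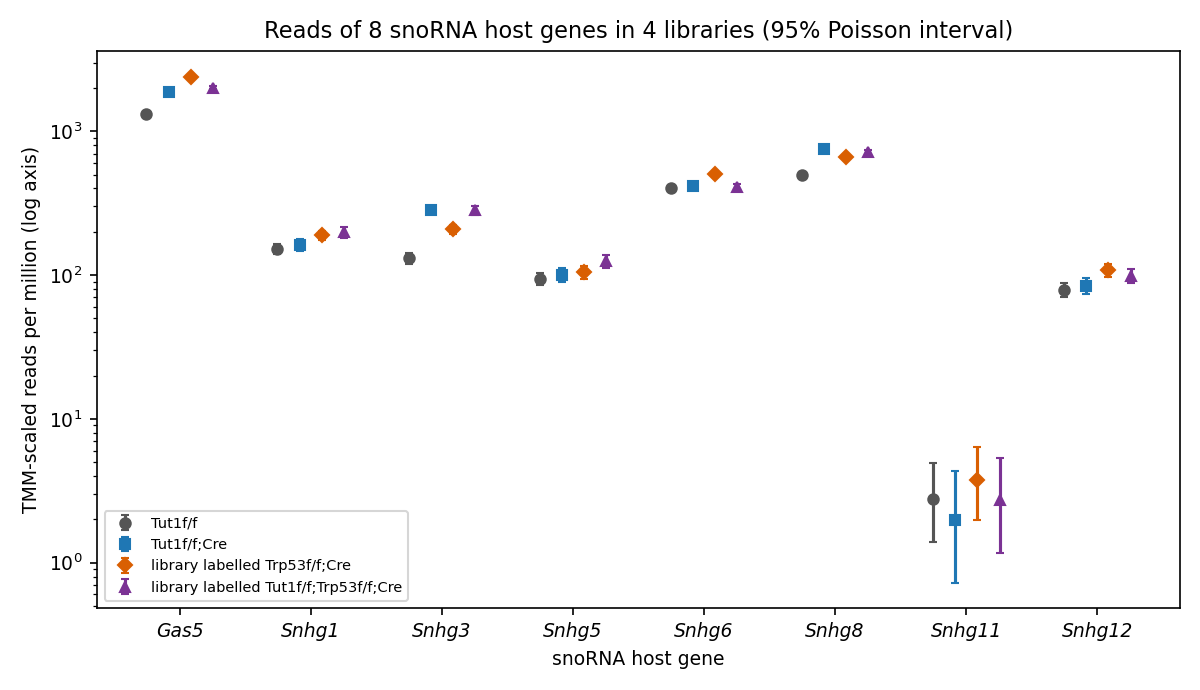
Level of each host gene in the 4 libraries in TMM-scaled CPM on a log axis, with 95% exact intervals that cover counting error only. In 7 of the 8 genes the Tut1f/f library is the lowest (for Snhg1, Snhg5, Snhg6 and Snhg12 its interval overlaps that of another library, and for Snhg6 the order changes under DESeq2 size factors), and Snhg11 sits near the bottom in all 4.

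A gene was called different between 2 libraries when its ratio was at least 2-fold and the 95% exact interval excluded 1. By this rule Snhg3 was the 1 host called higher in Tut1f/f;Cre, and no host was called lower. Over all tested genes 12.7% were called higher and 13.3% lower in that comparison, so 1 of 7 hosts lay close to the background. In the Trp53f/f;Cre-labelled library no host was called against backgrounds of 12.5% higher and 15.3% lower. In the Tut1f/f;Trp53f/f;Cre-labelled library, Snhg3 was again the 1 host called higher, with backgrounds of 10.3% higher and 9.76% lower. Reads could be split between Snhg3 and Rcc1, and the part of this in the Snhg3 calls was not tested. All 7 log2 ratios were above 0 in each of these comparisons, which share the control library, except that Snhg6 in the Tut1f/f;Trp53f/f;Cre-labelled library went from 0.02 to -0.02 with DESeq2 size factors in place of TMM and was also below 0 without the ribosomal RNA gene. Their medians were 0.10, 0.40 and 0.41, against -0.01, -0.02 and -0.01 over all tested genes.

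At a 1.5-fold threshold, 2 hosts were called higher in each comparison. They were Snhg3 and Snhg8 in Tut1f/f;Cre (background 20.2%), Gas5 and Snhg3 in the Trp53f/f;Cre-labelled library (20.6%), and Gas5 and Snhg3 in the Tut1f/f;Trp53f/f;Cre-labelled library (16.7%). With DESeq2 size factors in place of TMM, Snhg8 in Tut1f/f;Cre and Gas5 in the Tut1f/f;Trp53f/f;Cre-labelled library were at 1.49 times, under this threshold. With library totals, Gas5 in Tut1f/f;Cre was above it at 1.55 times, and Snhg8 in the Tut1f/f;Trp53f/f;Cre-labelled library at 1.57 times. When reads of plain Ensembl transcripts alone were counted, leaving out entries with a variant suffix, Gas5 was called higher in the Trp53f/f;Cre-labelled library with a log2 ratio of 1.14, against a background of 10%.

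**Figure D2:**
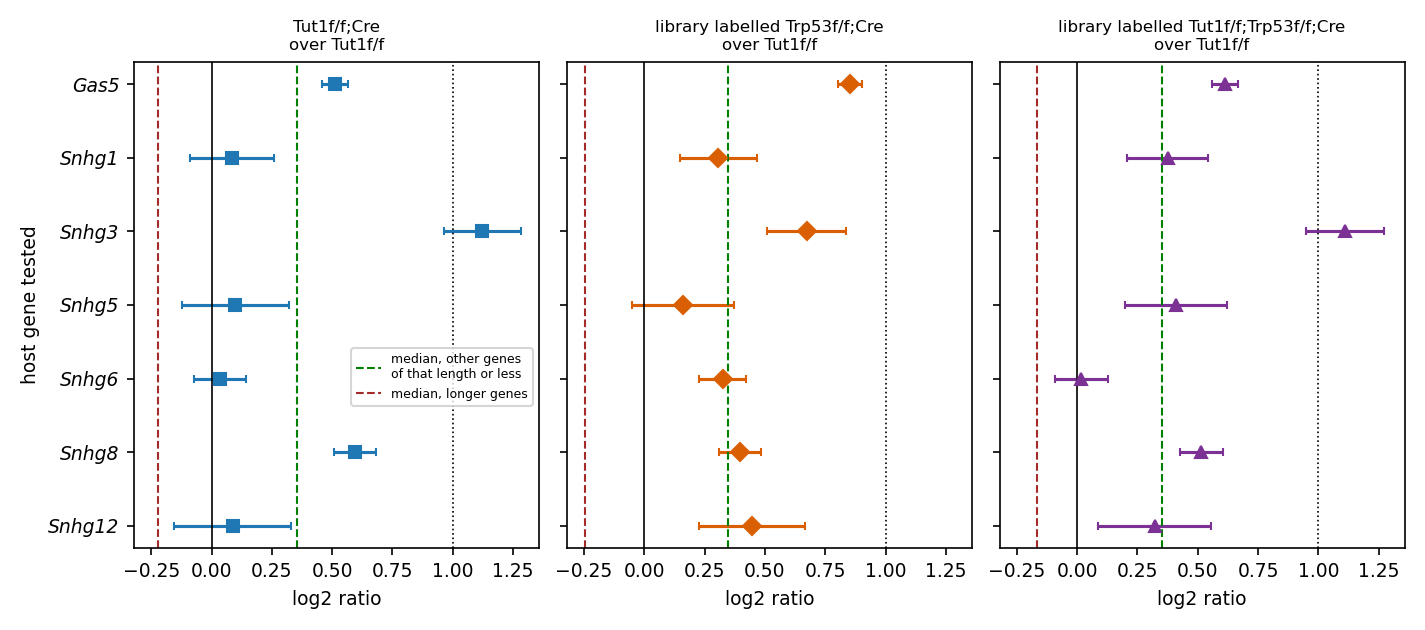
Log2 ratio of each tested host gene in the Cre-treated libraries over Tut1f/f, with 95% exact intervals that cover counting error only. The dotted line marks 2-fold, and the dashed lines mark the medians of other tested genes at or below 781 bases and above it. With TMM scaling all points lie to the right of 0, with Snhg6 in the last panel changing sign under DESeq2 size factors or without the ribosomal RNA gene, and those of Snhg3 pass the dotted line in 2 of the 3 panels.

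The leading spliced transcripts of the hosts were short, with 557 bases for Gas5, 605 for Snhg1, 437 for Snhg3, 781 for Snhg5, 473 for Snhg6, 448 for Snhg8 and 606 for Snhg12. Snhg11 had the longest, at 1329 bases. A leading transcript length was known for 7184 of the 9882 tested genes, and the rest are in no length class. Among those other than the hosts whose leading transcript was 781 bases or less, the log2 ratio over the control had a median of 0.35 in each Cre-treated library (722 genes). Of these genes, 522, 524 and 514 lay above 0. Among the 6455 longer genes the medians were -0.22, -0.25 and -0.17. The host medians of 0.10, 0.40 and 0.41 lay below the median of the short genes in Tut1f/f;Cre and above it in the other libraries. These length classes were set after the data were seen, and how far length accounts for the host ratios was not tested.

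**Figure D3:**
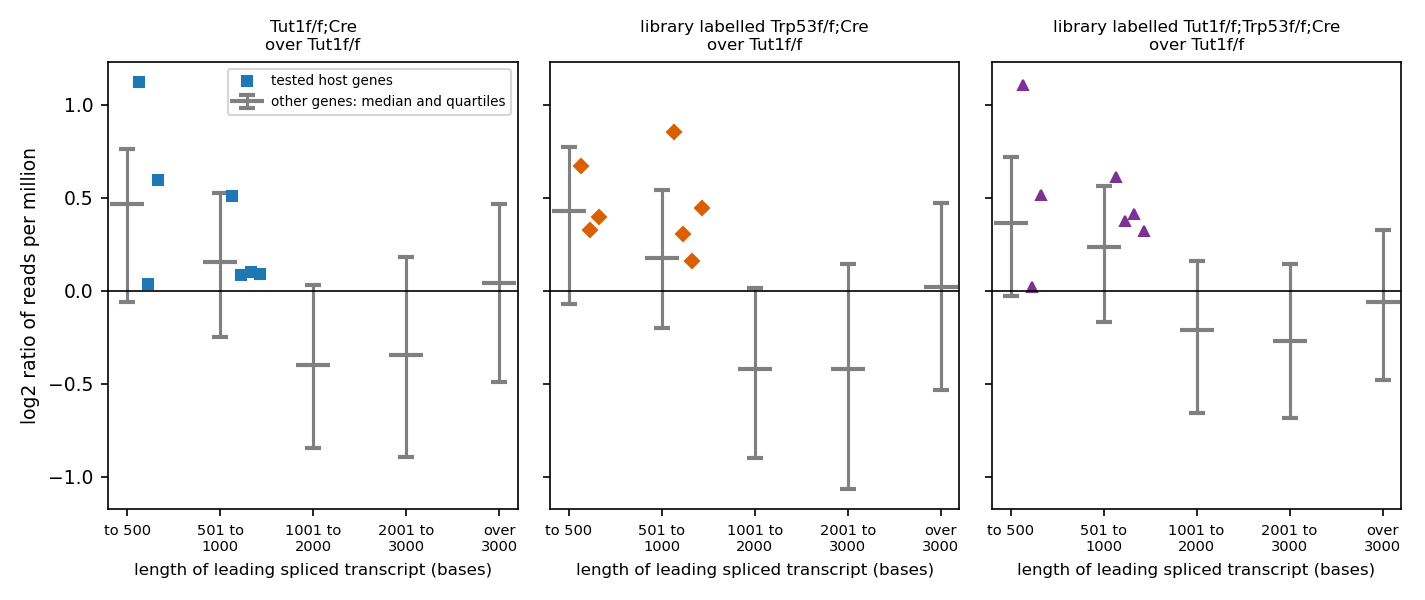
Median log2 ratio over Tut1f/f of the other tested genes in bins of leading transcript length, with the quartiles, and the 7 tested host genes beside the bin they fall in (log2 of CPM ratios). In genes of up to 500 bases the medians are 0.46, 0.43 and 0.36, and in genes of over 1000 and up to 2000 bases they are -0.40, -0.42 and -0.21.

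Between Cre-treated libraries, which do not involve the control, no host passed the 2-fold rule. The backgrounds were 4.68% higher and 2.56% lower for the Tut1f/f;Trp53f/f;Cre-labelled library over the Trp53f/f;Cre-labelled library, 2.23% and 2.27% for the former over Tut1f/f;Cre, and 2.19% and 1.16% for Tut1f/f;Cre over the Trp53f/f;Cre-labelled library. The median log2 ratios of the hosts were 0.07, 0.10 and -0.22, with 4, 4 and 2 of the 7 above 0, and the first of these medians was -0.01 with plain Ensembl transcripts alone.

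Gas5 was lower in the Tut1f/f;Trp53f/f;Cre-labelled library than in the Trp53f/f;Cre-labelled library, at 0.848 times (0.820 to 0.877), and so was Snhg6 at 0.808 times (0.750 to 0.870). Snhg3 went the other way in the same comparison, at 1.36 times (1.23 to 1.499). The hosts thus did not share 1 direction between these libraries. Snhg5 was at 1.19 times (1.03 to 1.38), a log2 ratio of 0.25 that was -0.01 with plain transcripts alone, and Snhg8 at 1.08 times (1.02 to 1.15), while the intervals of Snhg1 (0.936 to 1.17) and Snhg12 (0.784 to 1.07) included 1. With DESeq2 size factors the log2 interval of Snhg8 included no change (-0.004 to 0.17). Without the ribosomal RNA gene those of Snhg8 and Snhg5 both did, and with library totals neither did.

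For Tut1f/f;Cre over the Trp53f/f;Cre-labelled library, the ratios were 0.789 (0.763 to 0.817) for Gas5, 1.37 (1.24 to 1.51) for Snhg3 and 0.819 (0.761 to 0.881) for Snhg6. These 3 hosts therefore had the same direction in both comparisons with the Trp53f/f;Cre-labelled library, which the comparisons share. Snhg12 was at 0.780 times (0.663 to 0.917) and Snhg1 at 0.857 times (0.761 to 0.964), while Snhg8 was at 1.15 times (1.08 to 1.21) and Snhg5 at 0.959 times (0.821 to 1.12). For the Tut1f/f;Trp53f/f;Cre-labelled library over Tut1f/f;Cre, the ratio was 1.24 (1.06 to 1.45) for Snhg5, 1.22 (1.08 to 1.38) for Snhg1 and 1.07 (1.04 to 1.11) for Gas5. The intervals of the other tested hosts included 1, with 1.18 (0.990 to 1.396) for Snhg12, 0.992 (0.901 to 1.09) for Snhg3, 0.987 (0.911 to 1.07) for Snhg6 and 0.946 (0.891 to 1.004) for Snhg8, and with DESeq2 size factors the log2 ratio of Snhg8 was -0.10 (-0.19 to -0.02).

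A model with a term for the Tut1 label and a term for the Trp53 label left 1 residual degree of freedom over the 4 libraries. By edgeR's quasi-likelihood test with Benjamini-Hochberg adjustment and a 2-fold minimum, 0 of 9882 genes (0%) were called for the Tut1 label. Without adjustment 171 genes had p below 0.05, none of them a host, and DESeq2 called 0 genes with 70 below 0.05. For the Trp53 label edgeR called 1 gene (0.0101%), with 147 genes below 0.05 without adjustment, and DESeq2 called 1 with 62. No host was called or had p below 0.05 by either tool. The largest host estimate for the Tut1 label was that of Snhg3, at 0.76 on the log2 scale (SE 0.453, edgeR adjusted p = 1), and for the Trp53 label that of Gas5, at 0.48 (SE 0.371, edgeR adjusted p = 0.9998). In simulated counts of the same depth the test called 164 of 200 genes changed 8-fold, and smaller changes, as those of the hosts were, were not simulated.

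The starts of the host transcripts were read because several hosts are known to begin with a pyrimidine tract. RefSeq windows on GRCm38.p6 were found for 7 hosts, with Snhg6 unmatched, and run from 10 bases before the annotated start through its first 20 bases. The 4 windows with the longest runs are shown with the longest unbroken run of C and T in capitals. A run was taken anywhere in the window, so it need not lie at the start.
Snhg12, chr4:132308668-132308697, plus strand: ttctcagTCCTTTCTCgcttcatccgcggt
Snhg1, chr19:8723477-8723506, plus strand: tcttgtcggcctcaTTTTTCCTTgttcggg
Snhg8, chr3:123508317-123508346, minus strand: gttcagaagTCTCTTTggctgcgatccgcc
Snhg5, chr9:88522878-88522907, minus strand: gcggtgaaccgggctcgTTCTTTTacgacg
The runs of Snhg12 and Snhg1 were 9 bases long, a length reached in 7.11% of the 32851 RefSeq windows, and those of Snhg8 and Snhg5 were 7 bases long, reached in 17.9%. The Snhg3 window had a run of 5. Gas5 had 2 annotated starts with runs of 3 and 6, and Snhg11 a run of 3. Whether the length of a run goes with the ratio of a host to the control was not tested.

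Retained introns were first counted as reads of transcripts that GENCODE annotates as retained-intron forms. Snhg5 had the largest share of its reads in such a form, at 11.5%, 7.21%, 5.46% and 9.21% (43, 22, 20 and 34 reads, in library order). Gas5 had 3.20%, 2.63%, 1.65% and 2.58% (167, 149, 136 and 153 reads). For both genes the control was highest and the Trp53f/f;Cre-labelled library lowest.

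Snhg1 had 1.81%, 2.24%, 0.912% and 1.88%, and Snhg8 had 1.36%, 1.71%, 1.57% and 1.38%. Snhg3, Snhg6, Snhg11 and Snhg12 had no reads in an annotated retained-intron form. Over the 8 hosts the shares were 2.33%, 1.99%, 1.37% and 2.01%, and no Cre-treated library exceeded the control.

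A share was called changed at a two-sided Fisher's exact test with Benjamini-Hochberg adjusted p below 0.05 and a difference of at least 10 points. The test compares 2 libraries, not conditions. None of the 4 hosts that could be tested was called in any comparison. Over all genes tested, 23%, 21.4% and 18.7% were called in the comparisons with Tut1f/f, and 1.2%, 0.152% and 0% between the Cre-treated libraries in the order used above. With 4 hosts tested, 0 called is near these backgrounds, and shares under 10%, as those of Gas5, Snhg1 and Snhg8 were, cannot fall by 10 points. Under the point threshold, Gas5 differed by -1.55 points between the Trp53f/f;Cre-labelled library and Tut1f/f (Fisher's exact test, adjusted p = 1.44e-07) and Snhg5 by -6.03 points (adjusted p = 0.0140). Against the same library Gas5 was higher by 0.935 points in the Tut1f/f;Trp53f/f;Cre-labelled one (Fisher's exact test, adjusted p = 0.0112) and by 0.984 points in Tut1f/f;Cre (adjusted p = 0.0318). With plain Ensembl transcripts alone the Snhg5 difference was -11.6 points (Fisher's exact test, adjusted p = 0.00683), which was called against a background of 22.8%.

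GENCODE's types do not name every transcript that keeps an intron. ENSMUST00000232301 of Snhg12 has type lincRNA, but its 4 exons and 1538 bases include intron 1 of the leading spliced transcript ENSMUST00000153474, which has 5 exons and 606 bases. Intron 1 holds Snora16a, whose sequence is given above. ENSMUST00000232301 made up 7.62%, 17.6%, 13.03% and 17.1% of Snhg12 reads (24, 45, 49 and 50 reads), and ENSMUST00000153474 made up 81.3%, 70.2%, 73.7% and 70.5%. All Cre-treated libraries lay above the control for the form with the intron and below it for the spliced form. The part of transcript length in this difference was not tested.

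In Tut1f/f;Cre both Snhg12 forms were called against the control, by -11.1 points for ENSMUST00000153474 (Fisher's exact test, adjusted p = 0.0202) and 10.03 points for ENSMUST00000232301 (adjusted p = 0.00552). These were 2 of 91 host isoforms tested, with 8.66% of all isoforms called. In the Trp53f/f;Cre-labelled library no host isoform was called of 92, with a background of 9.12%. In the Tut1f/f;Trp53f/f;Cre-labelled library, ENSMUST00000153474 was called at -10.7 points (Fisher's exact test, adjusted p = 0.0261), while ENSMUST00000232301 differed by 9.504 points (adjusted p = 0.00744) and so fell just under the threshold. With ENSMUST00000239369-0 of Snhg5, these were 2 of 102, with a background of 6.49%.

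Counted by exon structure, a choice made after the data were seen, Snhg12 kept an intron in 13.7%, 23.1%, 20.7% and 24.3% of its reads. The difference from the control was 9.49 points in Tut1f/f;Cre (Fisher's exact test, adjusted p = 0.0266), 7.09 points in the Trp53f/f;Cre-labelled library (adjusted p = 0.0676) and 10.7 points in the Tut1f/f;Trp53f/f;Cre-labelled library (adjusted p = 0.00870), of which only the last was called. All Cre-treated libraries were above the control, and they differed from each other by less than 4 points. The backgrounds by exon structure were 8.72%, 7.82% and 6.47% against the control, and 1.68%, 0.238% and 0.489% between the Cre-treated libraries, where no host was called.

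Snhg5 had called isoforms in 1 of the 3 comparisons between Cre-treated libraries. ENSMUST00000239369-0, which GENCODE M21 does not list and whose structure was not analysed here, made up 41.2%, 46.2%, 38.8% and 52.8% of Snhg5 reads. The spliced ENSMUST00000182232 made up 28.3%, 27.2%, 38.3% and 23.0%. The library labelled Trp53f/f;Cre had the most of the spliced form, and the Tut1f/f;Trp53f/f;Cre-labelled library the least.

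Between these libraries the differences were 14.05 points for ENSMUST00000239369-0 (Fisher's exact test, adjusted p = 0.0123) and -15.2 points for ENSMUST00000182232 (adjusted p = 0.00145). These were the 2 called of 92 host isoforms, with 1.24% of all isoforms called, and as shares of 1 gene they are not independent. Between the Tut1f/f;Trp53f/f;Cre-labelled library and Tut1f/f;Cre, and between Tut1f/f;Cre and the Trp53f/f;Cre-labelled library, no host isoform was called, with backgrounds of 0.15% and 0.222%. With the Tut1 label as the term over all 4 libraries, edgeR's diffSpliceDGE with Benjamini-Hochberg adjustment called 0 of 21738 isoforms (0%), with 53 below an unadjusted p of 0.05 at 10 points or more and none of those in a host.

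**Figure D4:**
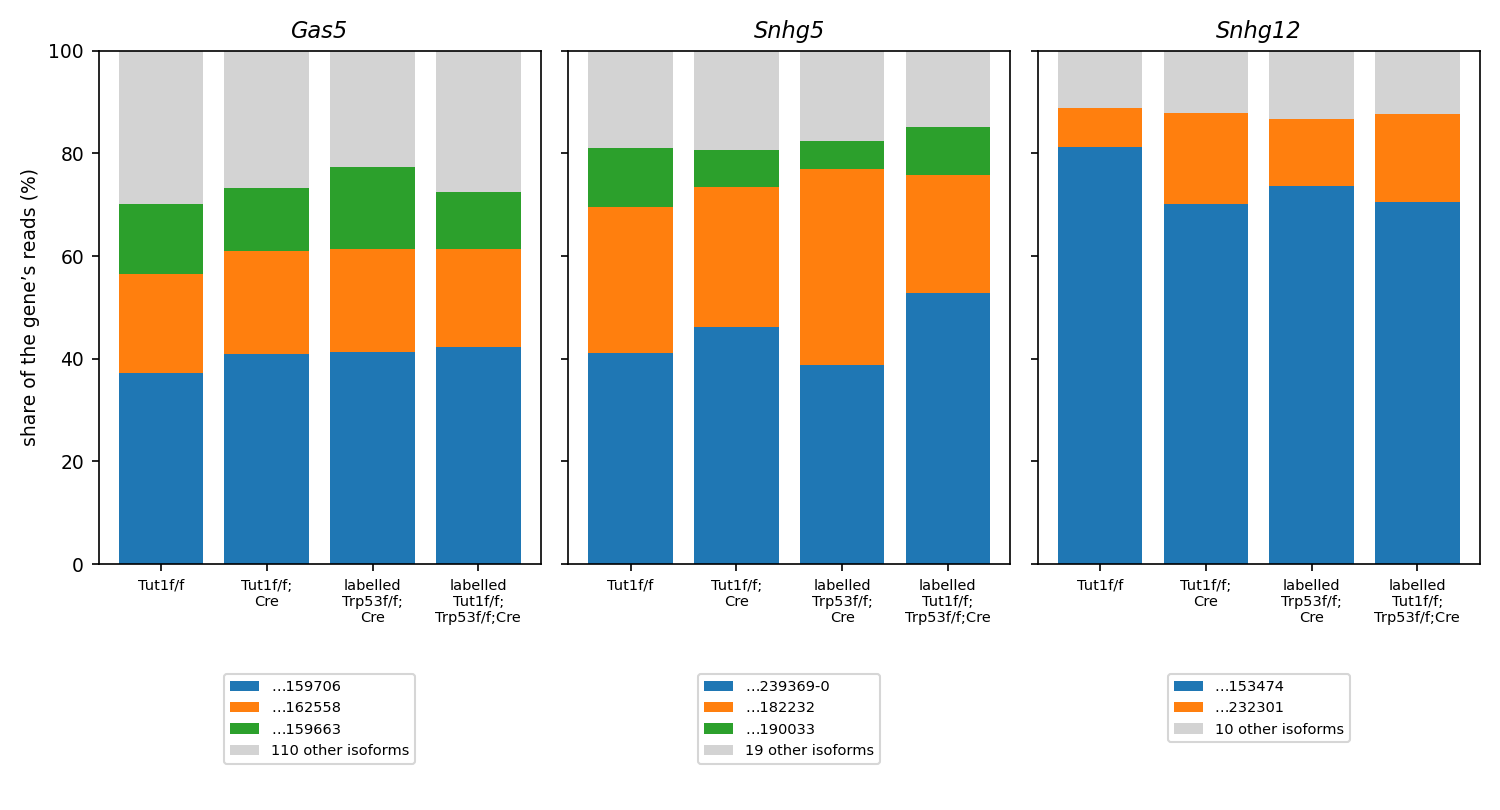
Share of each gene's reads in its leading isoforms for Gas5, Snhg5 and Snhg12, by library. The key gives the last digits of each Ensembl transcript name. The share of the Snhg12 form ENSMUST00000232301, which holds Snora16a, is 7.62% in Tut1f/f and between 13.03% and 17.6% in the Cre-treated libraries.

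The leading isoforms of Gas5, Snhg1, Snhg3, Snhg6 and Snhg8 were not called in any comparison, since their shares differed by less than 10 points. ENSMUST00000159706 of Gas5 took 37.3% to 42.3% of its reads, spread over 113 isoforms, and was higher by 3.70, 3.96 and 4.97 points in the Cre-treated libraries than in the control (Fisher's exact test, adjusted p = 0.00148, 0.000112 and 5.59e-06). ENSMUST00000206155 of Snhg1 took 59.4% to 67.2%. ENSMUST00000152943 of Snhg3 took 93.6% to 95.04%, ENSMUST00000182580 of Snhg6 81.0% to 84.1% and ENSMUST00000196466 of Snhg8 98.2% to 98.6%. Snhg11 was under the minimum of 20 reads per library and was not tested, with 5, 3, 4 and 1 reads in ENSMUST00000149303 and 6, 3, 9 and 7 in ENSMUST00000109488-0.

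Transcripts that keep a whole snoRNA gene within an exon were counted next, over plain transcripts with a known structure. They made up 1.98% (95% Wilson interval 1.71 to 2.29), 2.06% (1.79 to 2.37), 1.63% (1.42 to 1.87) and 2.13% (1.85 to 2.44) of host reads. These intervals overlapped, but when any overlap of an exon with a snoRNA gene counted, the control was highest at 3.44% (3.08 to 3.84) and did not overlap the Trp53f/f;Cre-labelled library at 2.54% (2.28 to 2.83). Reads that keep an intron in a form that is not annotated are not in these shares.

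Snhg12 had a whole snoRNA in an exon in the largest share of reads, at 14.3% (10.8 to 18.8), 24.6% (19.6 to 30.4), 22.0% (17.98 to 26.6) and 25.6% (20.8 to 31.1). Gas5 had 2.48%, 2.02%, 1.24% and 2.02%, and Snhg8 had 1.36%, 1.71%, 1.57% and 1.38%. Snhg1 had 2.14%, 2.28%, 1.07% and 2.30%, but 27.0%, 26.1%, 20.9% and 21.3% when any overlap of an exon with a snoRNA gene counted, which put it above Snhg12 in Tut1f/f and Tut1f/f;Cre. For Snhg3, Snhg6 and Snhg11 no annotated transcript keeps a snoRNA, so their 0 was fixed by the annotation and bounds nothing. The same holds for Snord50b of Snhg5, and the 1 annotated transcript that keeps Snord50a had 0 reads.

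Within Snhg12, the kept snoRNA differed by intron. Snora16a was kept in 24, 45, 49 and 50 reads, the reads of ENSMUST00000232301. Snora61 was kept in 4.33%, 3.75%, 5.35% and 4.33% of reads and Snord99 in 3.00%, 3.33%, 3.94% and 5.05%. The difference from the control was thus larger for Snora16a than for these. Snora44 was kept in at most 0.845% of reads.

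The intron ends involved are shown as GENCODE M21 gives them on GRCm38, because the start of the intron is where U6 snRNA pairs. Donor windows have 9 exon bases before 12 intron bases, with the first 6 intron bases in capitals. Acceptor windows have 12 intron bases, the last 2 in capitals, before 9 exon bases.
Snhg12 intron 1 donor, chr4:132308899-132308919, plus strand: ttttgacccGTGAGTgttgta
Snhg12 intron 1 acceptor, chr4:132309826-132309846, plus strand: cattcatcttAGctgttgatg
Snhg8 intron 1 donor, chr3:123508100-123508120, minus strand: ggtcggatgGTGAGTgacacc
Gas5 intron 4 donor, chr1:161036236-161036256, plus strand: gagcgcaatGTAAGCaatttt
Snhg5 intron 1 donor, chr9:88522839-88522859, minus strand: gtcttgtcgGTGAGTgagtta
Snhg5 intron 3 donor, chr9:88522295-88522315, minus strand: ttttaaaggGTGTGTattgaa
The leading transcripts of the 8 hosts had 40 introns, and both ends could be read for 31. All 31 began with GT and ended with AG. GTAAGT was the commonest donor with 8 introns, GTGAGT followed with 6 and GTAAGC with 5.

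Snhg12 intron 1 and Snhg8 intron 1 share the donor GTGAGT, and each holds 1 snoRNA. Among reads that either keep or splice the intron, 8.03%, 18.9%, 13.9% and 18.1% kept Snhg12 intron 1, whereas 1.36%, 1.71%, 1.57% and 1.38% kept Snhg8 intron 1. Whether the donor letters bear on these shares was not tested. Gas5 intron 4, which holds no snoRNA, was kept in 133, 99, 83 and 118 reads, the most of any Gas5 intron, or 3.49%, 2.31%, 1.28% and 2.66%. By share, intron 6 with Snord78 was above it in the control at 3.68% and below it in the Cre-treated libraries at 2.07%, 1.09% and 2.31%. Snhg5 introns 1 and 3 are kept together in ENSMUST00000190033, the retained-intron form counted above, at 28.9%, 20.95%, 12.5% and 28.6% of reads with a known structure.

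**Figure D5:**
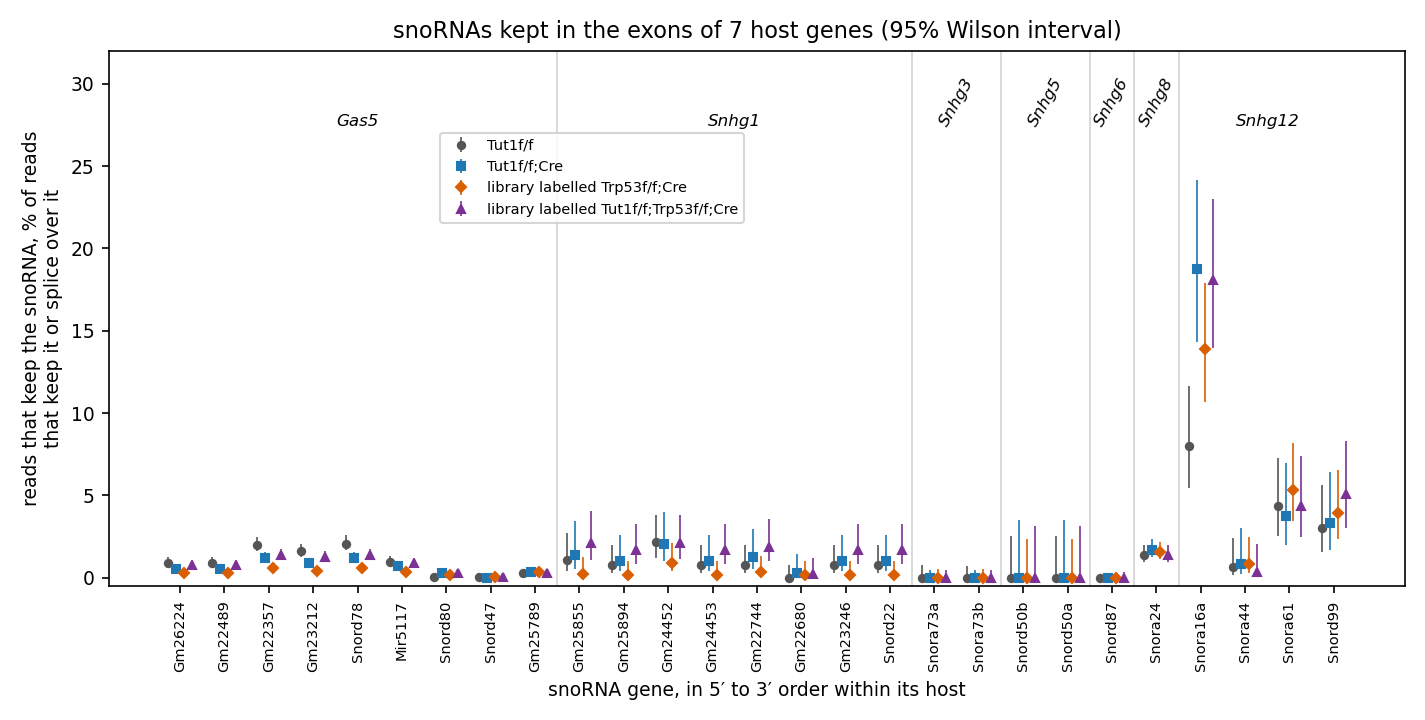
Share of reads that keep each snoRNA in an exon, among reads that keep it or splice over it, for the snoRNAs of 7 hosts in the 4 libraries, with 95% Wilson intervals that cover counting error only. Snora16a of Snhg12 stands highest in every library, at 13.9% to 18.8% in the Cre-treated libraries with the control below them, and the snoRNAs of Snhg3, Snhg5 and Snhg6 lie at 0, where only Snord50a has an annotated transcript that could keep it.

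The proteins that bind and assemble snoRNAs were read beside the hosts, as a list of 18 genes of which 17 were tested. In Tut1f/f;Cre 4 were called lower by the 2-fold rule, in the Trp53f/f;Cre-labelled library 4, and in the Tut1f/f;Trp53f/f;Cre-labelled library 2, and none was called higher. Over all genes 13.3%, 15.3% and 9.76% were called lower and 12.7%, 12.5% and 10.3% higher. The list medians were -0.20, -0.06 and 0.12 on the log2 scale. Gar1, a core protein of box H/ACA snoRNPs, had 162 reads in Tut1f/f and 15, 16 and 16 in the Cre-treated libraries. Ruvbl2, an assembly ATPase, had 453, 103, 111 and 163 reads, and its partner Ruvbl1 362, 93, 115 and 147. The remaining called genes were Shq1 in Tut1f/f;Cre and Pih1d1 in the Trp53f/f;Cre-labelled library, both assembly factors.

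The 4 core proteins of box C/D snoRNPs, Fbl, Nop56, Nop58 and Snu13, summed to 542, 476, 433 and 619 CPM, and none was called. The whole list summed to 1843, 1636, 1580 and 1965 CPM. Other snoRNA hosts were also compared. Of the 18 that GENCODE M21 does not give as protein-coding, among them Cct6a, known as the gene of a chaperonin subunit, 0, 0 and 2 (AA465934, with 26 against 15 reads, and Snhg18, with 13 against 6) were called higher and none lower, with median log2 ratios of 0.42, 0.14 and 0.34. Of 203 protein-coding hosts, 31, 30 and 22 were called higher and 29, 34 and 14 lower, with medians of 0.04, 0.07 and 0.12. Over all genes the shares were 12.7%, 12.5% and 10.3% higher and 13.3%, 15.3% and 9.76% lower.

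The genes outside the list whose levels over the 4 libraries were most like the median profile of the hosts were Rpl28, Srpr, Nup160 and Pym1, among 7566 genes with at least 100 reads. Their Euclidean distances on the centred log2 scale were 0.0401, 0.0540, 0.0581 and 0.0620. Rpl28, a ribosomal protein gene, had 4457, 3749, 4968 and 4050 reads. With 4 points a profile this close describes these libraries only.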

How the data were processed

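Cells were sequenced as Nanopore cDNA-PCR libraries of total RNA, 1 per group. The authors deposited whole-number read counts per isoform or genomic position, on mm10 per the labels; the study names minimap2 and FLAIR for long reads of dissected pallium, but the tool that made these counts, its filters and any use of strand were not given in the sources used here for the neural stem cell libraries. All 4 sample columns were used. Of the 255164 entries, 46637 name a gene, and gene counts are their sums. Gene symbols, types and transcript sequences came from GENCODE M21 (GRCm38), in which 21811 of 21893 plain transcripts and 14936 of 14949 genes matched. Start windows came from RefSeq (GRCm38.p6). Reads with no gene name were left out of library sizes.

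Levels are counts per 1000000 gene reads after TMM scaling (edgeR 4.0.16, R 4.3.3). Ratios between libraries carry 95% exact conditional binomial intervals. Genes were tested for each label with edgeR's quasi-likelihood test, and with DESeq2 1.42.0 as the alternative, after the default count filter. Isoform and retained-intron shares were compared by two-sided Fisher's exact tests (scipy 1.17.1), for genes with at least 20 reads in each library, with Benjamini-Hochberg adjustment over all genes or isoforms tested. Scripts were tested on simulated data. The members, lists and tests were chosen with earlier results of these data known. All 8 hosts are named whatever their values, together with isoforms at 10% or more of a gene or annotated as retained introns with 10 reads, called genes of the other lists (protein-coding hosts as counts only), and the 5 nearest profiles, of which 1 is not reported here. Alternatives were another scaling, filter, tool, threshold and set of transcripts, and each library left out.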

Additional observations from a re-analysis of the deposited data

Results flagged for a closer look

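Gas5 differed in direction between the comparisons that add the Tut1 deletion label. Its log2 ratio was 0.51 for Tut1f/f;Cre over Tut1f/f and -0.24 for the Tut1f/f;Trp53f/f;Cre-labelled library over the Trp53f/f;Cre-labelled library, a difference of 0.7486. The difference was not tested, since each group has 1 library, and whole-gene Tut1 reads do not follow the labels of the latter pair.

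Reads named by a 1-kb position inside the span of a host, rather than by a gene, were found for all 8 hosts and were outside the gene counts. Such a name does not place the reads within the host. Only for Snhg3 and Snhg6 was every Cre-treated library above the control beyond counting error. For Snhg3 there were 65, 108, 114 and 108 such reads (16.3, 35.7, 32.7 and 36.6 CPM, in library order), and the lowest Cre-treated library was 2.002 times the control. For Snhg6 there were 53, 124, 134 and 110 reads (13.3, 40.9, 38.5 and 37.3 CPM), with a lowest fold of 2.798. Snhg1 had 17, 27, 11 and 20 such reads (4.27, 8.91, 3.16 and 6.78 CPM), with the Trp53f/f;Cre-labelled library below the control, and the remaining hosts had 10 or fewer in each library. The strand of these entries was not given, and the share of all reads with no gene name also went from 17.2% in the control to between 27.3% and 30.2%. Their part in the host levels was not tested.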

How the results depend on the processing

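Of 112 alternative values for 31 counts, medians and shares, 97 stayed within their limits and 15 moved. At 1.5-fold with TMM scaling, 2 hosts were called in each comparison with Tut1f/f, and other scalings changed which hosts passed in some of them. With plain Ensembl transcripts alone, 1 host was called by level and 1 by retained-intron share in the Trp53f/f;Cre-labelled library, and the median log2 ratio there was 0.58; it was 0.51 with library totals in place of TMM. In Tut1f/f;Cre the same medians were 0.25 and 0.22, from 0.10, and in the Tut1f/f;Trp53f/f;Cre-labelled library 0.54 and 0.55, from 0.41. Library totals shift all genes of a comparison alike, and the Gas5 log2 ratio in Tut1f/f;Cre went from 0.51 to 0.63. By exon structure, chosen after seeing the data, 1 host was called by retained-intron share in the Tut1f/f;Trp53f/f;Cre-labelled library. At 20 points no host isoform was called in any comparison (0). Counting any overlap with a snoRNA gene gave shares of 3.44%, 3.09%, 2.54% and 3.10%. Of 168 alternative ratios of single hosts, 142 stayed, 25 moved and 1 (Gas5 with plain transcripts) passed the 2-fold rule. The sign changed in 6, none of a called ratio.

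Leaving out 1 library at a time, with the other label's term dropped too, edgeR called between 0 and 0 hosts in all 8 fits. For the Trp53 label without Tut1f/f;Cre, and the Tut1 label without the Trp53f/f;Cre-labelled library, the control was set alone against Cre-treated libraries. Such a fit cannot tell the label from Cre mRNA. Each of the 8 fits left 1 library in a group, so no p-values or further counts are given. No paired analysis was possible because each group has 1 library and replicate numbers pair nothing. Changes under 8-fold were not simulated.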
